A study of Mus musculus with 2 samples.

Results

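Proliferating CD8 T cells are the cytotoxic T lymphocytes caught while copying their DNA or dividing. They were taken here as the spleen barcodes with at least 200 detected genes, under 10% mitochondrial UMIs (molecules counted once by their molecular identifiers), at least 1 UMI of Cd8a or Cd8b1, at least 1 UMI of Cd3d, Cd3e or Cd3g, and at least 3 summed UMIs of 7 cell cycle genes: Mki67, Top2a, Pclaf, Birc5, Ube2c, Cdk1 and Rrm2. By this rule 119 of 19416 CD8 T cells were proliferating, 79 of 10699 in the DHEA library and 40 of 8717 in the CTRL library. The DHEA library came from wild-type C57BL/6 mice that had 40 mg/kg dehydroepiandrosterone in 20 µL sesame oil under the skin every day for 21 days, a treatment the submitters call a model of polycystic ovary syndrome. The CTRL library came from wild-type mice given 20 µL of the oil alone on the same days. In both, the cells were enriched from spleen with magnetic beads and pooled, and the sources used here give neither the number of animals nor their sex or age. With 1 library per group no test between groups is possible, so every interval below is a 95% interval, exact unless named otherwise, that covers counting error only, and differences between animals cannot be told apart from differences between treatments.

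A naive CD8 T cell circulates in a resting state, held there by interleukin 7 signals and by transcription factors such as Tcf7, Lef1 and Klf2. After it meets its antigen it enters the cell cycle, and its daughters become either effector cells, which carry granzymes and perforin for killing target cells, or memory cells, which persist and can divide slowly without antigen. In each cycle genes for DNA replication are switched on first and genes for the mitotic spindle later, so a cycling cell shows both its phase and the T cell state from which it divides.

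The share of CD8 T cells in cycle was 0.738% in the DHEA library (0.585 to 0.919%) and 0.459% in the CTRL library (0.328 to 0.624%). These intervals overlap, while the difference of 0.280 percentage points had a Newcombe interval of 0.0593 to 0.497 points, which lies above 0. The share depended on how many cell cycle UMIs were asked for. At 15 or more UMIs it was 0.299% in DHEA (32 cells, 0.205 to 0.422%) and 0.287% in CTRL (25 cells, 0.186 to 0.423%), and at 5 or more 0.514% in DHEA and 0.379% in CTRL, with a difference of 0.135 points whose interval covers 0 (-0.0579 to 0.324). Cells with 3 to 14 UMIs numbered 47 in DHEA and 15 in CTRL, so nearly all of the difference lay among cells with few cell cycle UMIs. Just inside the threshold, at 3 UMIs, there were 17 DHEA and 6 CTRL cells, and just outside it, at 2 UMIs, 82 DHEA and 41 CTRL cells. The other CD8 T cells of DHEA had a median of 4469 UMIs and those of CTRL 5599, and the part of depth in the shares was not tested. When each cell was first thinned to 2000 UMIs, the shares were 0.509% in DHEA and 0.295% in CTRL.

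The proliferating cells were deeper than the rest of their library. Their median was 6701 UMIs and 2346 genes in DHEA and 12187 UMIs and 3501.5 genes in CTRL. The deepest single cell held 5.91% of the UMIs summed over proliferating cells in DHEA and 6.40% in CTRL. Cd8a, a chain of the CD8 coreceptor and a gene the rule asks for, stood at 374.1 CPM (UMIs per 1000000 summed UMIs) in proliferating and 419.8 CPM in other CD8 T cells of DHEA, and at 372.3 and 349.4 CPM in those of CTRL. Among T cell genes the rule does not use, Trac, the constant part of the T cell receptor alpha chain, had a UMI in 73 of 79 DHEA and all 40 CTRL cells, and Lck, the kinase of the CD8 coreceptor, in 75 and 40. No proliferating cell of either library had a UMI of Cd4, the helper T cell coreceptor, or of Ncr1, a receptor of natural killer cells. Other helper T cell genes were not all at 0. Cd40lg had a UMI in 2.53% of DHEA members, against 0.405% of other cells, and in 2.5% of CTRL members, against 0.622%. Zbtb7b had a UMI in 1.27% of DHEA members, against 0.358%, and in 0 CTRL members. After thinning both genes were at 0 in the members. Of 14 B cell genes 6 had a UMI in the members of either library. Their sum was 0 to 13 UMIs a cell (180.6 CPM) in proliferating and 0 to 11 (296.1 CPM) in other cells of DHEA, and 0 to 16 (334.5 CPM) and 0 to 11 (273.3 CPM) in those of CTRL, with Pax5 and Ms4a1 at 0 in the members of both. Cd79b, of the B cell receptor, had a UMI in 14 of 79 DHEA cells (17.7%, against 8.0% of other cells) and 10 of 40 CTRL cells (25%, against 8.69%), and after thinning in 0% and 5%. Of 16 myeloid genes 5 had a UMI in DHEA members, 0 to 10 UMIs a cell (153.5 CPM, against 83.8 CPM in other cells), and 4 in CTRL members, 0 to 5 a cell (92.6 CPM, against 73.8 CPM), with Lyz2, Csf1r and S100a8 at 0. Tyrobp, a signaling adaptor of myeloid and natural killer cells, had a UMI in 5.06% of DHEA members, against 0.593% of other cells, and Fcer1g, another, in 7.5% of CTRL members, against 1.2%. The part of these genes in the results was not tested. However, 3 members had 1 CD8 UMI and 1 CD3 UMI each beside many UMIs of erythroid and mast cell progenitor genes: 155 and 104 UMIs in a pair of DHEA cells and 344 UMIs in 1 CTRL cell, mostly of the carbonic anhydrase gene Car1. These 3 cells go against the label. They are included in the values below unless stated. Of the 51 barcodes that occur in both libraries, 0 were proliferating in DHEA and 1 in CTRL.

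The 7 genes of the rule are shown as a description, since they chose the cells. Pclaf, a partner of the replication clamp, stood at 681.1 CPM in proliferating and 0.649 CPM in other cells of DHEA, and at 722.2 and 0.206 CPM in those of CTRL. Mki67, which coats mitotic chromosomes, stood at 290.2 CPM in proliferating cells of DHEA and 334.5 CPM in those of CTRL. Top2a, the topoisomerase that untangles sister chromosomes, had a UMI in 53 of 79 DHEA and 37 of 40 CTRL cells, and Cdk1, the mitotic kinase, in 35 and 23. Between the libraries' proliferating cells the 7 genes differed by log2 ratios of DHEA over CTRL from -0.36 for Top2a to 0.38 for Ube2c, which targets proteins for destruction at the end of mitosis.

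The T cell state that was in cycle differed between the libraries. Each cell was thinned to 2000 UMIs and placed in a range by panels of 6 genes that share none with the rule. The effector range needed at least 2 UMIs of Gzma, Gzmb, Gzmk, Klrg1, Cx3cr1 and S1pr5. Of the remaining cells, the memory range needed at least 2 UMIs of Ccl5, Cxcr3, Il2rb, Eomes, Klrc1 and Fasl, and of those left the naive range needed at least 1 UMI of a panel that included Ccr7, Lef1, Dapl1, Igfbp4 and Actn1. These are ranges along measured genes and not cell types.

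In the DHEA library 39 of 79 proliferating cells lay in the effector range, a share of 49.4% (37.9 to 60.9%). In the CTRL library 0 of 40 did, which allows a share of up to 8.81% (the upper end of the exact interval). The naive range held 21 proliferating cells in DHEA, 26.6% (17.3 to 37.7%), and 26 in CTRL, 65.0% (48.3 to 79.4%). These intervals do not overlap in either range. The memory range held 15 cells in DHEA, 19.0% (11 to 29.4%), and 9 cells in CTRL, 22.5% (10.8 to 38.5%), with intervals that overlap widely. The last 4 DHEA and 5 CTRL cells had too few UMIs of every panel to be placed.

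**Figure D1:**
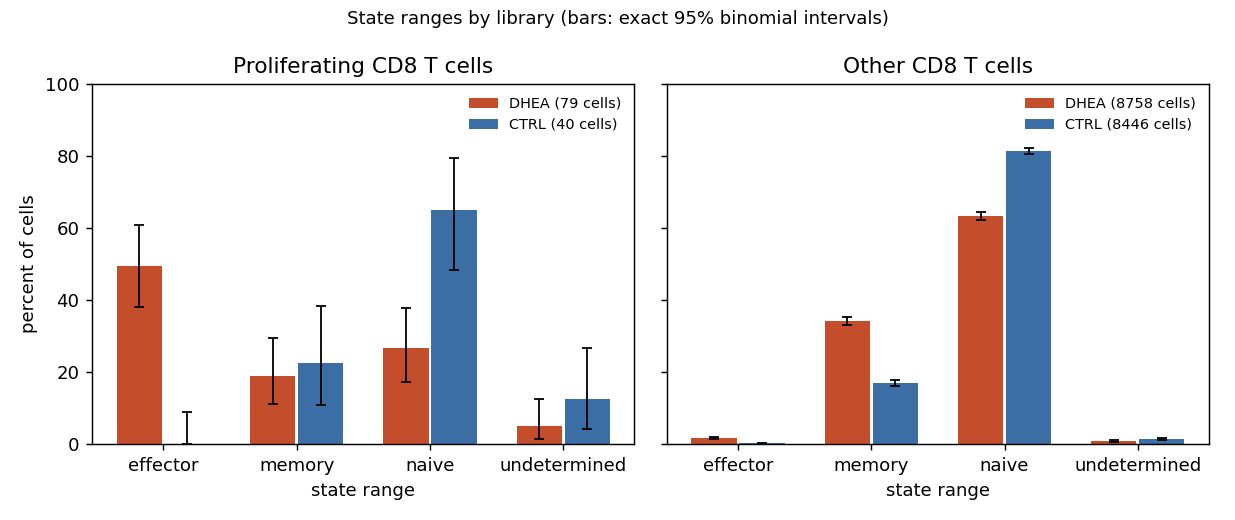
Share of cells (percent) in each state range, DHEA left of CTRL, among proliferating CD8 T cells (left panel, 79 and 40 cells) and other CD8 T cells (right panel, 8758 and 8446 cells with at least 2000 UMIs); bars show exact 95% binomial intervals. The effector range holds 49.4% of proliferating DHEA cells and none of the 40 CTRL cells, and under 2% of the other cells of either library.

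The cells that were not in cycle had a different makeup. Among them the effector range held 147 of 8758 DHEA cells (1.68%) and 20 of 8446 CTRL cells (0.237%). The memory range held 34.2% of them in DHEA and 16.9% in CTRL, and the naive range 63.3% in DHEA and 81.4% in CTRL. A further 1862 DHEA and 231 CTRL cells were too shallow to be placed.

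Read the other way, the share of a range that was in cycle was highest in the effector range of DHEA. Of 186 effector-range cells in DHEA 39 were proliferating, 21.0% (15.4 to 27.5%), whereas of 20 such cells in CTRL 0 were, which allows a share of up to 16.8%. These intervals overlap. In the memory range 15 of 3007 DHEA cells, 0.499% (0.279 to 0.821%), and 9 of 1439 CTRL cells, 0.625% (0.286 to 1.18%), were proliferating. In the naive range the share was 0.377% in both libraries, from 21 of 5566 DHEA cells (0.234 to 0.576%) and 26 of 6898 CTRL cells (0.246 to 0.552%). The DHEA value of the effector range lay above the intervals of its memory and naive ranges, while the shares of memory and naive cells in cycle did not differ between the libraries beyond counting error. Of the cells that no panel placed, 4 of 78 in DHEA (5.13%) and 5 of 129 in CTRL (3.88%) were proliferating. All 3 progenitor-gene cells were among them, and without them the numbers were 2 of 76 in DHEA (2.63%) and 4 of 128 in CTRL (3.12%). The DHEA effector value was 8.06% when at least 15 cell cycle UMIs were asked for and 12.9% when 1 UMI of the effector panel was enough.

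**Figure D2:**
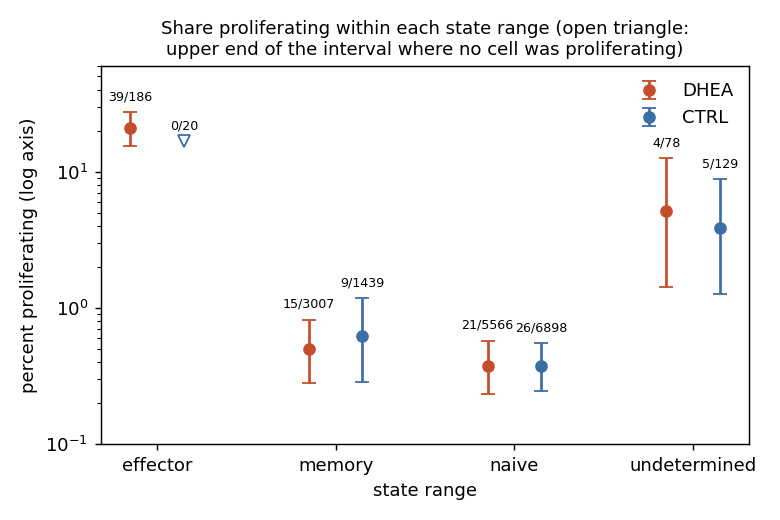
Percent of the cells in each state range that were proliferating (log axis), DHEA left of CTRL, with exact 95% binomial intervals and the counts above each point; the open triangle is the upper end of the interval for 0 of 20 CTRL cells. The DHEA effector range stands at 21.0%, the memory and naive ranges of both libraries between 0.377% and 0.625%.

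Few cells decided this split by a single UMI. After thinning, 35 of the 79 DHEA cells had 0 UMIs of the effector panel, 5 had 1, 4 had 2 and 24 had 5 or more, with a highest value of 59. All 40 CTRL cells had 0. The line between the memory and naive ranges was less sharp, with 10 DHEA and 8 CTRL cells 1 UMI short of the memory range, and without thinning 57.5% of the CTRL cells lay in the memory range. The effector share did not rest on the cells with few cell cycle UMIs either. With 15 or more of them, 15 of 32 DHEA cells (46.9%) and 0 of 25 CTRL cells lay in the effector range, and 16 of the 25 CTRL cells (64.0%) in the naive range. Just outside the rule, among cells with 2 cell cycle UMIs, 12 of 80 DHEA cells (15%) and 0 of 40 CTRL cells were in the effector range. Just inside it, at 3 UMIs, the numbers were 6 of 17 in DHEA and 0 of 6 in CTRL.

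**Figure D3:**
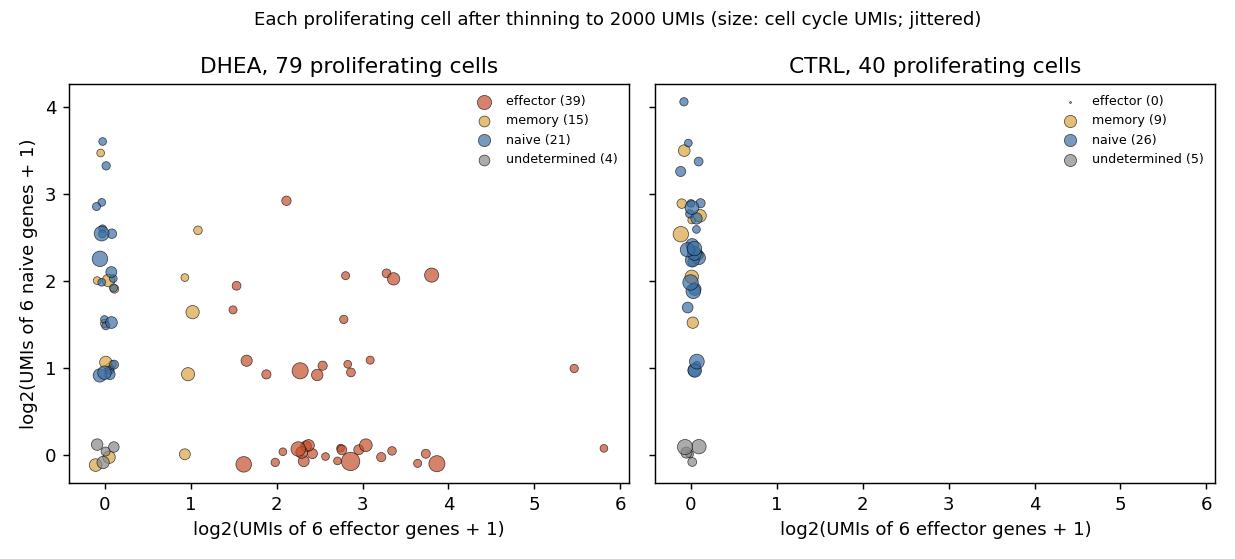
Each proliferating cell after thinning to 2000 UMIs, DHEA left and CTRL right, by its UMIs of the 6 effector genes (horizontal axis, log2 of UMIs plus 1) and of the 6 naive genes (vertical axis, same scale); color gives the state range and point size the cell cycle UMIs. The 40 CTRL cells all sit at 0 effector UMIs, and 39 DHEA cells spread to the right up to 59 UMIs.

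Depth moved with the states. Proliferating DHEA cells of the effector range had a median of 4590 UMIs, those of the memory range 8881 and those of the naive range 9477, while in CTRL the memory range had 10644 and the naive range 13426.5. Cells were placed after thinning, and the part of depth in the gene ratios below was not tested. The median of cell cycle UMIs was 9 in the effector, 10 in the memory and 5 in the naive range of DHEA, against 32 in the memory and 36 in the naive range of CTRL. The highest single value, 255 UMIs, was in a DHEA cell of the effector range. The phase of the cells was described by UMIs of replication and nucleotide synthesis genes set against mitotic genes, without the 7 genes of the rule. Unscaled, the medians after thinning were 11 replication and 6 mitotic UMIs a cell in DHEA, and 11.5 and 8.5 in CTRL. Each sum was then divided by its total over the proliferating cells of both libraries, so the split is relative to the pooled cells. After this scaling, mitotic genes outweighed replication genes in 33 of 79 DHEA cells, 41.8% (30.8 to 53.4%). In CTRL they did so in 16 of 40 cells, 40.0% (24.9 to 56.7%). These intervals overlap but are too wide to show that the phase was alike. In the naive range mitotic genes outweighed in 5 of 21 DHEA cells, 23.8% (8.22 to 47.2%). There they did so in 11 of 26 CTRL cells, 42.3% (23.4 to 63.1%), and in the DHEA effector range in 19 of 39.

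Granzyme genes were found in a part of the cycling cells of DHEA, and in few or none of those of CTRL. Gzmb, the granzyme that cleaves caspases in target cells, had a UMI in 41 of 79 proliferating DHEA cells and in 0 of 40 CTRL cells. After thinning the DHEA share was 44.3%, against 1.44% of the other CD8 T cells of the same library and 0 of the 21 proliferating DHEA cells in the naive range even in full counts. The CTRL share of 0 allows up to 8.81%, and 0.213% of other CTRL cells had a UMI after thinning. Gzma, a granzyme of another substrate class, had a UMI in 30 DHEA and 4 CTRL cells, and Gzmk, a granzyme of early effector and memory cells, in 37 DHEA and 0 CTRL cells. After thinning Gzma was left in 31.6% of DHEA and 0 of the CTRL cells and Gzmk in 27.8% of DHEA cells, against 1.64% and 0.982% of other DHEA cells. In the DHEA effector range, which these genes help define, granzymes were also common outside the cycle. There Gzmb had a UMI in 89.7% of the 39 cells in cycle and 76.2% of the 147 not in cycle. Gzma had one in 69.2% and 69.4%. Gzmb and Gzmk occurred together in 27 of the 39 effector-range cells in cycle and in 62 of the 147 effector-range cells not in cycle. Klrg1, an inhibitory receptor of effector cells, had a UMI in 20 DHEA cells and 0 CTRL cells. Pdcd1, which encodes the inhibitory receptor PD-1, had a UMI in 14 DHEA cells (17.7%, and 6.33% after thinning) and 3 CTRL cells (7.5% and 2.5%). In DHEA Pdcd1 was present in 9 of the 39 effector-range and 4 of the 15 memory-range cells in cycle. All 9 effector-range cells also had Gzmb, as did 35 of the 39. Gzmb is a gene of the effector panel, so this overlap is largely set by the definition.

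Genes of naive cells were found in a larger share of the CTRL cells. Dapl1, abundant in naive CD8 T cells, had a UMI in 18 of 79 DHEA and 28 of 40 CTRL cells, and after thinning in 16.5% and 50%. Tcf7, which encodes the factor TCF1 of naive and memory cells, had a UMI in full counts in 39 of the 40 CTRL cells. In DHEA it had one in 20 of 21 cells of the naive range, 13 of 15 of the memory range and 13 of 39 of the effector range. After thinning, Tcf7 was in 39.2% of DHEA and 62.5% of CTRL cells. Lef1 was in 41.8% and 62.5%, Actn1 in 13.9% and 32.5%, Ccr7 in 19.0% and 30%, and Igfbp4 in 8.86% and 10%. For these genes the intervals of the libraries overlap, while those of Dapl1 do not. Ccl5, a chemokine stored by memory and effector cells, had a UMI in 68 of 79 DHEA and 18 of 40 CTRL cells, and after thinning in 70.9% and 22.5%. It was present in all 39 effector-range and all 15 memory-range DHEA cells. Ccl5 is a gene of the memory panel, so its presence in the memory range is largely set by the definition. Of the 9 CTRL cells in the memory range, all 9 had a UMI of Tcf7 and 7 had Cxcr3, a chemokine receptor of memory cells. Cxcr3 also belongs to the panel that placed these cells. In the DHEA memory range 5 of 15 cells had a UMI of Gzmb and 7 of Gzmk.

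Summed over the proliferating cells of each library, 4046 genes had at least 50 UMIs, and 1.5-fold was used as a rule of size. By it 428 genes, 10.6% of those measured, were higher in DHEA and 403, or 9.96%, lower, with a median log2 ratio of 0.02 over all genes. All 17 effector genes measured of a list of 26 were past 1.5-fold higher in DHEA, none lower, and their median was 2.61 with 3 genes at a lower bound, or 3.38 without the 3 progenitor-gene cells. The 50 UMIs were summed over both libraries, so genes that are high in DHEA alone passed through DHEA: 5 of the 17 had 3 or fewer UMIs in CTRL (Gzmb, Gzmk, Klrg1, Prf1 and Lgals3 with 0 to 3) and 8 reached 50 UMIs in CTRL. These 17 are not the whole list, and their count is a description. Of 18 memory genes measured of 24, 14 were higher and 2 lower (median 1.61). Only 7 of the 18 reached 50 UMIs in both libraries, of which 5 were higher and 1 lower, so this count is a description too. Of 20 naive and quiescence genes measured of 22, 3 were higher and 11 lower (median -0.65). Some genes in these lists also made up the panels that defined the ranges.

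The effector genes led the ratios. Gzma stood at 905.5 CPM (702 UMIs in 30 cells) in proliferating DHEA cells and 6.86 CPM (4 UMIs in 4 cells) in CTRL, a log2 ratio of 7.04 (5.68 to 8.92). Gzmb had 463 UMIs in DHEA and 0 in CTRL, at least 116-fold higher in DHEA when 3 UMIs stand for the 0. On the same terms Gzmk, with 159 UMIs in DHEA, was at least 39.9-fold higher and Klrg1, with 71 UMIs, at least 17.8-fold higher. Lgals3, which encodes a sugar-binding galectin, stood at 279.9 CPM in DHEA and 5.15 CPM in CTRL (log2 5.77, 4.20 to 8.05). Prf1, the pore-forming perforin, had 50 UMIs in 26 DHEA cells and 3 UMIs in 3 CTRL cells (log2 3.65, 2.02 to 5.97). No cell held over 27.2% of the DHEA UMIs of any of these genes.

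Other genes of the effector and memory lists followed. S100a6, a calcium-binding protein, stood at 2505 CPM in DHEA and 120.1 CPM in CTRL (log2 4.38, 4.04 to 4.75), and 52.9% of its CTRL UMIs came from 1 cell. Ccl5 stood at 2442 CPM in 68 DHEA cells and 145.8 CPM in 18 CTRL cells (log2 4.07, 3.75 to 4.40). Klrc1, a chain of the inhibitory receptor NKG2A, had 75 UMIs in DHEA and 4 in CTRL (log2 3.82, 2.40 to 5.73). Among transcription factors, Id2, which favors effector fate, stood at 486.3 CPM in DHEA and 72.1 CPM in CTRL, whereas its relative Id3, linked to memory, stood at 61.9 and 132.1 CPM. Tbx21, which encodes T-bet, had a log2 ratio of 2.20 (1.45 to 3.04) and Zeb2, a factor of terminal effector cells, one of 2.48 (1.47 to 3.67), which was 3.38 without the 3 progenitor-gene cells. Of 12 homing and exit genes measured, 8 were past 1.5-fold higher (7 without those cells) and 1 lower, beside 10.6% and 9.96% of all genes, among them Cxcr6 at 2.74, Itga4 (an integrin chain of tissue entry) at 1.64 and Cxcr3 at 1.41.

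Genes of resting cells were lower in the proliferating cells of DHEA. Dapl1 stood at 126.4 CPM in 18 DHEA cells and 549.0 CPM in 28 CTRL cells (log2 -2.12, -2.46 to -1.79). Bach2, which restrains effector differentiation, had a log2 ratio of -1.39 (-1.74 to -1.05), Tcf7 one of -1.09 (-1.36 to -0.81), and St6gal1, a sialyltransferase, one of -2.04 (-2.78 to -1.34). Klf2, the quiescence factor that also drives exit from lymph nodes, went the other way at 0.80 (0.56 to 1.04). After thinning, Klf2 was also in more of the other CD8 T cells of DHEA, 78.4% against 63.5% in CTRL. Other low ratios rested on 1 CTRL cell, which held 88.7% of the CTRL UMIs of Ccnb1ip1 (log2 -3.55), 80.4% of those of Aldh16a1 (-2.13) and 89.7% of those of Terf2ip (-2.11). Nedd4l, a ubiquitin ligase (-2.38), Kntc1, a spindle checkpoint gene (-2.15), and Bbs9, a cilium gene (-2.02), were spread over 16 to 23 CTRL cells.

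**Figure D4:**
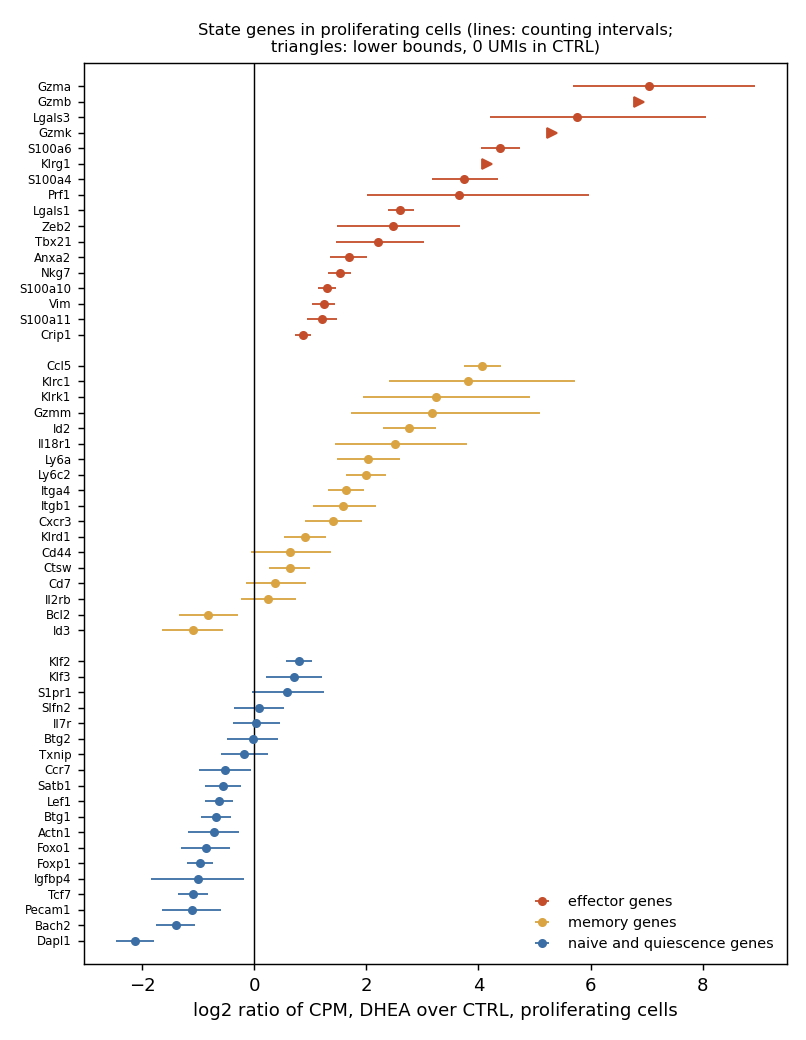
Log2 ratio of CPM, DHEA over CTRL, in proliferating cells for effector, memory and naive or quiescence genes named from lists, each with at least 50 UMIs; lines are exact 95% counting intervals, and triangles are lower bounds for Gzmb, Gzmk and Klrg1, which had 0 UMIs in CTRL. The 17 effector genes lie right of 0, while Dapl1 at -2.12 and Bach2 at -1.39 lie farthest to the left.

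Genes of division were past 1.5-fold in few cases when all proliferating cells were summed. Of 45 mitosis genes measured, 2 were higher in DHEA (4.44%) and 5 lower (11.1%), with a median of -0.03, beside 10.6% and 9.96% of all genes. Of 35 replication genes 1 was higher (2.86%) and 7 lower (20%), with a median of -0.13, and of 16 nucleotide synthesis genes 0 and 0 (median -0.15). Mitosis genes were lower in a larger part of the list within the naive range and outside the effector range, as given below. Mcm2, a subunit of the replicative helicase, stood at 85.1 CPM in DHEA and 49.8 CPM in CTRL, while Pcna, the replication clamp, stood at 304.4 and 461.5 CPM. Ccnb2, a mitotic cyclin, had a log2 ratio of 0.66 (0.31 to 1.02) and Kif11, a spindle motor, one of -0.85 (-1.33 to -0.38). Against the same 10.6% and 9.96% of all genes, of 58 nuclear genes of oxidative phosphorylation 1 was higher and 1 lower (median 0.11), and of 14 glycolysis genes 3 were higher, Aldoa (0.82), Eno1 and Pgk1 (0.61 each), and 0 lower. Of 12 interferon response genes 0 were higher and 3 lower (0% and 25%, on the same background), among them Rnf213 (-1.15) and Ifi27l2a (-0.67). Nr3c1, which encodes the glucocorticoid receptor, stood at 49.0 CPM in DHEA and 89.2 CPM in CTRL (log2 -0.86, -1.51 to -0.23).

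Ratios were also taken outside the effector range, where smaller effector ratios follow from the selection itself. Without the effector range and the 3 progenitor-gene cells, 38 DHEA and 39 CTRL cells remained, in which 192 of 2917 genes (6.58%) were past 1.5-fold higher and 234 (8.02%) lower. Effector genes were higher in 7 of 9 measured (median 0.76) and memory genes in 9 of 14 (median 0.87), beside a median of 0.01 over all genes. Genes entered on UMIs summed over both libraries, so some could enter through DHEA, and these 9 are a smaller set than the effector genes above. The DHEA cells left include the memory range, where 5 of 15 cells had a UMI of Gzmb and 7 of Gzmk. Ccl5 stood at 980.6 CPM in 27 DHEA cells and 155.1 CPM in 18 CTRL cells (log2 2.66, 2.32 to 3.02), Ly6a, a surface antigen of activated and memory cells, had a ratio of 1.65 and Icos, a costimulatory receptor, 1.63. S100a6 stood at 1110 CPM in 16 DHEA cells and 127.7 CPM in 7 CTRL cells (log2 3.12, 2.75 to 3.51). Naive and quiescence genes were higher in 3 and lower in 4 of 19 (median -0.06), and mitosis genes higher in 0 and lower in 10 of 36 (median -0.33).

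Within the naive range alone, 21 DHEA and 26 CTRL cells, 103 of 1862 genes (5.53%) were past 1.5-fold higher in DHEA and 158 (8.49%) lower. S100a4, another calcium-binding protein, had the highest ratio, but its 81 DHEA UMIs came from 2 cells, and 54.3% of them from 1. Ly6c2, a surface marker of memory cells, stood at 258.4 CPM in 8 DHEA cells and 92.0 CPM in 11 CTRL cells (log2 1.49, 0.86 to 2.14). It differed outside the cycle as well. After thinning, Ly6c2 had a UMI in 48.7% of the other CD8 T cells of DHEA and 26.8% of those of CTRL. The part of such library-wide differences in the ratios was not tested. Mitosis genes were lower in 12 and higher in 0 of 23 (median -0.59), among them Kif11 (-1.31, -2.26 to -0.46). The chromatin gene Ezh2, which silences genes through histone methylation, stood at 115.4 CPM in DHEA and 352.3 CPM in CTRL (log2 -1.61, -2.29 to -0.99). These naive-range cells also had a median of 5 cell cycle UMIs in DHEA against 36 in CTRL, given above, and the part of that in these ratios was not tested.

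Against the other CD8 T cells of the same library, 2-fold was used as a rule of size. In DHEA 644 of 4525 genes measured (14.2%) were higher in proliferating cells and 351 (7.76%) lower, and in CTRL 582 of 4522 (12.9%) were higher and 222 (4.91%) lower. Mitosis genes were higher in 43 of 45 in DHEA (median 5.57) and 42 of 45 in CTRL (median 5.8), beside medians of 0.07 and 0.02 over all genes. Replication genes were higher in 31 of 35 in DHEA (median 2.70) and 34 of 35 in CTRL (median 2.75), and histone and chromatin genes in 23 of 26 and 26 of 26. Nucleotide synthesis genes were higher in 10 of 16 in DHEA and 12 of 16 in CTRL (8 and 10 without the progenitor-gene cells), with Tyms, the thymidylate synthase, at 4.37 and 5.22. Because the cells were chosen on cell cycle genes, these lists describe them and support nothing further.

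Outside the rule, the genes highest in both libraries were mostly of the spindle and of chromatin. Ccna2, the cyclin of S and G2 phase, stood at 149.6 CPM in proliferating and 0.122 CPM in other cells of DHEA, and at 130.4 and 0.164 CPM in those of CTRL. Ska1, which ties kinetochores to microtubules, had log2 ratios of 9.73 in DHEA and 10.19 in CTRL, and Neil3, a DNA repair glycosylase, of 8.99 and 9.55. Hmmr, a spindle assembly protein, had ratios of 8.80 and 10.29, Aurkb, the kinase that corrects chromosome attachment, of 8.44 and 9.25, and Cenpf, a kinetochore protein, of 8.36 and 9.37. The histone genes H3c3 (9.68 and 11.76), H1f5 (8.80 and 10.96) and H2ac10 (9.54 and 8.90) belong to families with near-identical copies that may share reads, so their values are uncertain. Car1 was also among the highest, at 9.88 and 9.78, but only through the 3 progenitor-gene cells, without which it had no ratio in either library.

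**Figure D5:**
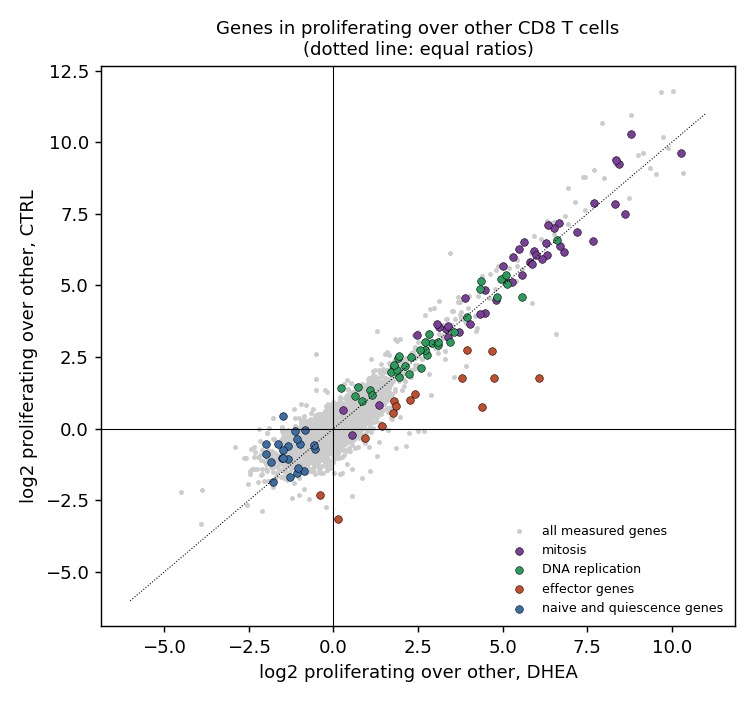
Log2 ratio of proliferating over other CD8 T cells for each measured gene, DHEA on the horizontal and CTRL on the vertical axis, with mitosis, DNA replication, effector and naive or quiescence genes in color and equal ratios on the dotted line. Mitosis and replication genes lie near the line in both libraries, while effector genes lie below it, higher in DHEA.

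The promoters of these genes are shown for the motifs that cell cycle genes are known to share. CCAAT is the letters bound by the factor NF-Y, TTTGAA the core of the element through which mitotic genes are repressed in resting cells, and TTCCCGC and TTGGCGC are forms of the E2F site. Each was looked for on both strands in the 250 bases before the start site of 32851 mouse promoters of RefSeq (build GRCm38.p6, whereas the counts were made on mm39 per the submitters' processing notes). CCAAT was in 33.8% of all promoters, 74.4% of 43 mitosis genes matched of 50 and 67.7% of 31 replication genes matched of 40. TTTGAA was in 16.0% of all promoters, 32.6% of mitosis and 16.1% of replication genes. TTCCCGC was in 3.82% of all promoters, 2.33% of mitosis and 32.3% of replication genes, and TTGGCGC in 1.97%, 4.65% and 9.68%. CCAAT and TTTGAA together were in 5.55% of all promoters, 30.2% of mitosis and 12.9% of replication genes. A match is a description of the letters, and the lists were chosen for their known roles in the cycle.

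The 3 mitosis and 3 replication promoters printed were chosen because these genes carry the expression pattern of the cycling cells. They had the highest ratio of proliferating over other cells in both libraries among the list members in that table. It does not list Ccna2 and Aurkb, and the choice also left out the genes of a single chromosome. All 3 mitosis promoters held CCAAT more than once, and the capitals mark every match of the 4 motifs on either strand (CCAAT reads ATTGG and TTTGAA reads TTCAAA on the other strand). The coordinates are those of GRCm38.p6 and each sequence runs 5′ to 3′ along the strand of its gene.
Hmmr (chr11:40733438-40733687, minus strand): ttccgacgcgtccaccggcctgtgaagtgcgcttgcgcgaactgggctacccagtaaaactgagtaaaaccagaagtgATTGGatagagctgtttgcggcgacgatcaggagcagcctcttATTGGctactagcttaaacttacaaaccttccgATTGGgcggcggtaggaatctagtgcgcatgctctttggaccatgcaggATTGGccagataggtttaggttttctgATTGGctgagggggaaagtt
Cenpf (chr1:189688087-189688336, minus strand): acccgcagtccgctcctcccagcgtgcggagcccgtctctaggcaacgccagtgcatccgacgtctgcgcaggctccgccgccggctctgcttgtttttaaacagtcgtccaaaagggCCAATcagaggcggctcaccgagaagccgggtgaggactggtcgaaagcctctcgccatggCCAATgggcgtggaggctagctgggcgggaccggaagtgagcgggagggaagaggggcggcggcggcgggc
Ckap2l (chr2:129297213-129297462, minus strand): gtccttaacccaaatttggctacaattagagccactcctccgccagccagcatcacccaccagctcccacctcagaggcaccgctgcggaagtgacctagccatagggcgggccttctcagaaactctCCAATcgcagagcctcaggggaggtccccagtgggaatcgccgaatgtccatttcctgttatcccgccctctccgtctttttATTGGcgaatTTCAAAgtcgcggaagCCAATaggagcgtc
Clspn (chr4:126556730-126556979, plus strand): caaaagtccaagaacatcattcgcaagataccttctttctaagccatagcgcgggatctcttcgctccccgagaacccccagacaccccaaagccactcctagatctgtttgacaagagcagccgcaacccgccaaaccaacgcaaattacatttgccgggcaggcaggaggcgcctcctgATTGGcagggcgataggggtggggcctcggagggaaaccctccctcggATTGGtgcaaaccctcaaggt
Uhrf1 (chr17:56303087-56303336, plus strand): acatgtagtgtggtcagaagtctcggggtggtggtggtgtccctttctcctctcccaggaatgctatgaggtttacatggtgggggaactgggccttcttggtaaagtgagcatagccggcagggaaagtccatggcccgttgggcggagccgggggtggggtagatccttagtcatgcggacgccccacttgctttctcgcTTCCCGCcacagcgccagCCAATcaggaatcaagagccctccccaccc
Cdc45 (chr16:18811973-18812222, minus strand): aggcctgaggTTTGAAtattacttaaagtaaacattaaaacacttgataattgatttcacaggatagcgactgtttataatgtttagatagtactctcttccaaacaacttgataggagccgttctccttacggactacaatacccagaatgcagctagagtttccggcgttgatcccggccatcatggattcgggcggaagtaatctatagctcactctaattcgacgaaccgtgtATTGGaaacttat
Among the 3 replication genes, Clspn, of the replication checkpoint, stood at 101.9 CPM in proliferating and 1.06 CPM in other DHEA cells, and at 102.9 and 1.07 CPM in those of CTRL. Uhrf1, which copies DNA methylation to the new strand, had log2 ratios of 5.10 in DHEA and 5.37 in CTRL, and Cdc45, a helicase partner, of 5.13 and 5.06. Ckap2l, a spindle protein, had ratios of 8.31 and 7.83. Only the Uhrf1 promoter among the 6 held TTCCCGC, and the Ckap2l and Cdc45 promoters held TTTGAA.

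Genes of the resting state and of survival signals were lower in proliferating cells of both libraries. Il7r, the receptor chain for interleukin 7, stood at 153.5 CPM in proliferating and 529.3 CPM in other cells of DHEA, and at 149.3 and 536.0 CPM in those of CTRL. Of 16 cytokine receptor and signaling genes 9 in DHEA and 7 in CTRL were past 2-fold lower, and 0 higher in either, beside 7.76% and 4.91% of all genes lower. Bcl2, the survival factor that interleukin 7 maintains, had log2 ratios of -2.40 in DHEA and -1.41 in CTRL, whereas Bcl2a1b, a survival gene of activated cells, had 1.95 and 2.05. Naive and quiescence genes were lower in 16 of 21 in DHEA (median -1.34) and 9 of 21 in CTRL (median -0.73), on the same background, and without the progenitor-gene cells in 14 and 6 of 21. Ccnd2, the cyclin of cell cycle entry, was lower as well, at -1.41 and -1.34.

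Single stress and immediate early genes were among the lowest ratios, while their lists were mixed. Of 12 heat shock genes measured, 1 was past 2-fold higher and 3 lower in DHEA (median 0.15), and 1 higher and 2 lower in CTRL (median -0.05), with the mitochondrial chaperone Hspd1 at 1.33 and 1.46. Of 7 early activation genes 0 were higher and 1 lower in DHEA, and 1 higher and 0 lower in CTRL. Hspa1b, an inducible chaperone, had 9 UMIs in proliferating DHEA cells (log2 -3.90, -5.03 to -2.97) and 0 in those of CTRL, which puts the CTRL ratio at -3.34 or lower when 3 UMIs stand for the 0. Hspa1a, its near-identical copy, had 3 and 0 UMIs (log2 -4.50 in DHEA, -6.78 to -2.95), and reads may be split between the pair. Fosb, a subunit of the AP-1 factor, had ratios of -2.52 in DHEA and -1.91 in CTRL, and Ppp1r15a, which reverses the stress block on translation, of -1.93 and -1.84. The coactivator of Notch signaling Maml3 had -2.54 and -2.66, the phosphodiesterase Pde2a -2.06 and -1.82, Rundc3b -2.10 and -2.85, Eml5 -2.22 and -1.87, and Tcp11l2 -1.79 and -2.02. Of 58 oxidative phosphorylation genes 17 in DHEA (29.3%, median 0.89) and 16 in CTRL (27.6%, median 0.85) were past 2-fold higher and 0 lower, beside 14.2% and 12.9% of all genes higher. Gapdh, of glycolysis, stood at 2582 CPM in proliferating and 603.7 CPM in other cells of DHEA, and at 2148 and 529.0 CPM in those of CTRL.

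Counts of effector and memory genes differed between the libraries in this comparison and are a description. Effector genes were past 2-fold higher in 15 of 18 in DHEA (median 3.11), and higher in 7 and lower in 2 of 15 in CTRL (median 0.96). Over all genes 14.2% were higher and 7.76% lower in DHEA, and 12.9% and 4.91% in CTRL. Genes entered on UMIs summed over both libraries, so some that are high in DHEA alone entered through DHEA. Gzmb had a log2 ratio of 5.45 (5.28 to 5.62) in DHEA. On the same background, memory genes were higher in 8 and lower in 1 of 20 in DHEA (median 0.27). In CTRL they were higher in 3 and lower in 5 of 20 (median -0.47). In CTRL Ccl5 stood at 145.8 CPM in proliferating and 735.1 CPM in other cells, while in DHEA it stood at 2442 and 1681 CPM.

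Within the DHEA effector range the 39 proliferating cells could be set against 147 cells of the same range that were not in cycle. Of 1268 genes measured 156 (12.3%) were past 2-fold higher and 115 (9.07%) lower, with a median of 0.09. Of 20 effector genes measured 6 were higher and 4 lower (median 0.46), and the lower ones included genes known from late effector cells. Outside that list, Klre1, a receptor of natural killer and late effector cells, had 2 UMIs in 39 proliferating and 133 UMIs in 44 of 147 other cells (log2 -4.99, -8.05 to -3.11). The 5 markers of natural killer cells (Ncr1, Klrb1c, Klre1, Fcer1g and Tyrobp) summed to 5 UMIs (14.8 CPM) in the proliferating cells, 0 or 1 in each. In the others they summed to 175 UMIs (247.9 CPM), 0 to 13 in each, of which 133 were of Klre1 and 30 of Klrb1c. Ncr1 was at 0 in both, while Tyrobp had a UMI in 7.69% of proliferating and 4.76% of other cells. The part of these markers in the ratios was not tested. Zeb2 stood at 151.0 CPM in proliferating and 725.4 CPM in other cells (-2.26, -2.71 to -1.85), and S1pr5, an exit receptor of terminal effector cells, at 32.6 and 154.4 CPM (-2.25, -3.29 to -1.35). Cx3cr1, the fractalkine receptor of the same cells, had a ratio of -1.63 (-2.26 to -1.05). Of the 6 effector panel genes 2 were past 2-fold lower, S1pr5 and Cx3cr1, and 0 higher, so Klrg1 was not past 2-fold either way. Ccl5 was in all 39 proliferating cells, at 4475 CPM against 22573 CPM in the others (-2.33, -2.41 to -2.26).

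Granzymes differed less within this range, of which they are part of the definition. Gzmb stood at 1320 CPM in proliferating and 736.7 CPM in other effector-range cells (log2 0.84, 0.66 to 1.03), Gzmk at 414.4 and 289.0 CPM (0.52, 0.20 to 0.84), and Gzma at 2060 and 2391 CPM (-0.22, -0.34 to -0.09). Among the effector genes that were higher, Lgals3 had a log2 ratio of 1.75, Anxa2, a membrane-binding annexin, one of 1.69, S100a6 one of 1.51 and the filament gene Vim one of 1.28. Of 11 naive and quiescence genes measured 9 were lower and 0 higher (median -1.44), such as the antiproliferative genes Btg1 (-2.23) and Btg2 (-2.10). Jun, the AP-1 subunit, stood at 44.4 CPM in 12 proliferating cells and 257.8 CPM in 72 others, and the nuclear noncoding RNA Malat1 at 3371 and 14856 CPM.

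The cycling cells of the effector and naive ranges of DHEA could also be compared with each other, although the panels fix the direction of their own genes. Of 1753 genes 168 (9.58%) were past 2-fold higher in the effector range and 86 (4.91%) lower. Beyond the panels, S100a6 stood at 4478 CPM in the effector and 101.5 CPM in the naive range (log2 5.46, 4.86 to 6.14), and Tbx21 at 227.9 and 18.5 CPM. Bach2 (-2.83), Tcf7 (-2.78) and Satb1, a chromatin organizer of resting T cells (-2.67), were lower. Mitosis genes had a median of 0.71, with 4 of 25 past 2-fold higher and 0 lower, beside a median of 0.17 over all genes.

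Naive-range cells in cycle could be set against resting cells of the same range in both libraries. In CTRL, 26 proliferating and 6872 other naive-range cells gave 195 of 1297 genes (15%) higher and 50 (3.86%) lower. Of 19 naive and quiescence genes measured 6 were past 2-fold lower (median -0.54), with Il7r at 173.5 CPM in proliferating and 510.8 CPM in other cells (log2 -1.56, -1.93 to -1.21). In DHEA, 21 proliferating and 5545 other naive-range cells gave 66 of 612 genes (10.8%) higher and 19 (3.1%) lower, and 4 of 16 naive and quiescence genes were lower (median -0.71), such as Klf2 at 373.8 and 914.7 CPM. T cell receptor segments were too sparse to compare clones, with 14 Trbv UMIs in 13 proliferating DHEA cells and 20 in 13 CTRL cells, of which Trbv16 had the most in DHEA (4 UMIs in 4 cells) and Trbv12-2 in CTRL (5 UMIs in 4 cells).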

How the data were processed

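Single-cell RNA was measured in 1 DHEA and 1 CTRL library of bead-enriched spleen CD8 T cells. The deposited matrices hold raw UMI counts of 33696 genes, made per the file headers by Cell Ranger 8.0.1. Seurat 4.3.0 and mm39 are named in the submitters' processing notes, with no role given. The matrices held 12128 barcodes and 53020893 UMIs in DHEA and 9495 barcodes and 51638782 UMIs in CTRL, of which 11671 and 9210 passed the filters on genes and mitochondrial UMIs. Members and state ranges follow the thresholds given in the results. The members, the gene lists and the tests were chosen with earlier results of these data known.

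UMIs were summed over cells and divided by their total to give CPM. Genes needed 50 UMIs summed over proliferating cells. For ratios of proliferating over other cells, 50 UMIs expected at the level of the other cells also sufficed. Genes with few UMIs in proliferating cells could thus enter as lower. A library at 0 was put at 3 UMIs. Named genes were the 10 highest and 10 lowest of proliferating over other cells in both libraries, the 8 highest and 8 lowest of DHEA over CTRL, up to 5 per list with the largest ratios, a fixed panel and the 7 rule genes. The ranking at either end skipped genes of ribosomal proteins, mitochondria, haemoglobin, immunoglobulins and receptor segments, and transcripts with no name. Genes named within the state ranges, the genes counted together in single cells, Trac, Lck, Tyrobp, Fcer1g, Cd79b and the natural killer markers were chosen after their values were seen. Intervals are exact (Poisson, Clopper-Pearson, and the split of 2 counts), or Newcombe's for a difference of 2 shares. No test was run, with 1 library per group. Values of 1 gene of the naive panel and 1 interferon response gene are not reported here. Scrublet called 1 DHEA and 0 CTRL cells, too few to have worked, so doublets were kept, and an alternative left out the highest scores. The ratio step was tested on simulated counts of 4040 genes for DHEA over CTRL, where 5.07% of unchanged genes passed 1.5-fold and intervals covered 96.0%. These were independent Poisson counts, the model that the intervals assume, so the result checks the calculation only. Spread between cells was not simulated, and the values do not carry over to genes whose UMIs sit in few cells. Tools were Python 3.11.15, numpy 2.4.6, pandas 2.3.3, scipy 1.17.1, scanpy 1.11.5, matplotlib 3.10.9 and, for the TMM scaling factors of 1 alternative, edgeR 4.0.16 in R 4.3.3.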

Additional observations from a re-analysis of the deposited data

Results flagged for a closer look

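Barcodes without a CD8 or CD3 UMI lie outside the rule, and some of them were in cycle. At least 3 cell cycle UMIs were carried by 8 of 972 such barcodes in DHEA, 0.823%, and by 11 of 493 in CTRL, 2.23%. They are given because these barcodes enter no comparison and more than 3 of them were in cycle in each library. That number does not tell cells from background or doublets.

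Genes of T cell state moved in opposite directions between the libraries when proliferating cells were set against other CD8 T cells of the same library, and the difference itself was not tested. Ccl5 had a log2 ratio of 0.54 in DHEA and -2.33 in CTRL. Id2 had 2.13 in DHEA and -0.59 in CTRL, and its relative Id3 -0.50 and 1.34. Itga4, an integrin chain, had 1.35 in DHEA and -0.47 in CTRL, and Nkg7, a granule protein of cytotoxic cells, 0.94 and -0.32. Gzmm, a granzyme of innate-like T cells, had 0.54 in DHEA and -1.40 in CTRL, the CTRL value from 4 UMIs. Dapl1, a gene of naive cells, had -1.49 in DHEA and 0.44 in CTRL.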

How the results depend on the processing

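No paired analysis was possible because each group has 1 library. Of the shares recomputed under the alternatives 210 stayed within their interval and 44 moved, of the counts of genes 67 stayed within 1.5 times and 29 moved, and none reversed. At 15 or more cell cycle UMIs, chosen after seeing the data, the share in cycle was 0.299% in DHEA and 0.287% in CTRL, a difference of 0.0123 percentage points. At 2 or more it was 1.505% and 0.929%, a difference of 0.576 points, at 5 or more 0.514% and 0.379%, a difference of 0.135 points whose interval covers 0, and after thinning to 2000 UMIs 0.509% and 0.295%.

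The CTRL effector share was 0 under all 17 settings and the DHEA share 32.1% to 66.7%. The DHEA share, and the difference from CTRL with it, was 32.1% at 2 or more cell cycle UMIs, 66.7% with membership after thinning and 34.2% with states from 1000 UMIs, and the difference was 60.8 points without thinning. The part of the DHEA effector range in cycle was 12.9% at a panel threshold of 1 UMI, 8.06% at 15 cell cycle UMIs and 15.2% without thinning. For the DHEA memory range the share of members was 8.86% without Ccl5, and the part in cycle was 1.46% at 2 cell cycle UMIs, 0.200% with thinned membership, 0.832% from 1000 UMIs and 0.233% at 15. For the DHEA naive range the share of members was 16.5% both at a panel threshold of 1 UMI and without thinning, and the part in cycle was 1.06% at 2 cell cycle UMIs, 0.198% at 5, 0.144% with thinned membership, 0.126% at 15 and 0.224% without thinning. The CTRL memory share was 42.5% at a panel threshold of 1 UMI, 7.5% at 3, 2.5% from 1000 UMIs and 57.5% without thinning, with a part in cycle of 0.271% at 3 and 0.0954% from 1000 UMIs. The CTRL naive share was 45% at 1, 80% at 3 and 37.5% without thinning, with a part in cycle of 0.812% at 2 cell cycle UMIs, 0.232% with thinned membership and at 15, and 0.241% without thinning. The cause was not tested.

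Counts of genes moved with the UMIs and the fold asked for. Higher and lower in DHEA than CTRL were 970 and 975 genes at 20 UMIs, 199 and 146 at 100 UMIs, 120 and 90 at 2-fold, and 110 and 58 with cells thinned to 2000 UMIs. Higher and lower in proliferating cells were 972 and 666 in DHEA and 905 and 533 in CTRL at 20 UMIs, 398 and 191 in DHEA and 346 and 113 in CTRL at 100 UMIs, 1247 and 878 in DHEA and 1089 and 687 in CTRL at 1.5-fold, and 140 and 49 in DHEA and 90 and 31 in CTRL with thinned cells. At 2 or more cell cycle UMIs 420 were higher and 91 lower in DHEA and 91 lower in CTRL. In CTRL 138 were lower without cells holding UMIs of other lineages and 139 with cells weighted equally. With 40 CTRL members, a state held by under 8.81% of them could have gone unseen.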
